A study of Mus musculus with 2 samples.

Results

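The 10 genes described here encode the adhesion molecules and venular markers of the vessel wall: Pecam1, Cd34, Icam2, Vwf, Plvap, Vcam1, Icam1, Ackr1, Selp and Sele. They were taken by symbol from the 32285 genes counted, and all 10 were found. They were chosen by their levels in the endothelial cells of these 2 libraries, which were already known, so every value is given as a description and no test was made. Single-cell RNA sequencing with 10x Genomics 3′ v3.1 chemistry was run on cortical cells of male Fam69c knockout (KO) and wildtype (WT) mice aged 4 months. Cortices were pooled by genotype, dissociated, stained with the viability dye 7-AAD and sorted, and each genotype gave 1 library. The protocol names 7 mice, and whether this is the number per genotype is not clear. Strain, the nature of the knockout allele and any agent given to the mice are not given in the sources used here. With no replicate library, genotype and pool cannot be told apart, and every interval below is an exact 95% interval that covers counting error only.

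Blood leukocytes leave the circulation mainly through small veins. Selectins on the endothelial surface, P-selectin (Selp) and E-selectin (Sele), catch passing cells, and the integrin ligands VCAM-1 (Vcam1), ICAM-1 (Icam1) and ICAM-2 (Icam2) hold them firmly before they cross at junctions that carry PECAM-1 (Pecam1). In resting brain vessels the selectins and VCAM-1 are known to be scarce and inducible by cytokines through NF-kB, whereas PECAM-1, ICAM-2 and the sialomucin CD34 are constitutive. Ackr1, the atypical chemokine receptor DARC, marks venules, von Willebrand factor (Vwf) is a clotting protein stored in Weibel-Palade bodies together with P-selectin, and Plvap forms the diaphragms of fenestrated vessels that the blood-brain barrier lacks.

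The windows upstream of the inducible genes are shown because these genes met in 1 endothelial cell of the WT library, described below. RefSeq windows on GRCm38.p6 were on hand for 5 of the 10 genes, and the 250 bases before the annotated start were searched on both strands for GGNNNTTCC, the core of NF-kB sites, with reverse complement GGAANNNCC. Capitals mark the matches. They lie at chr1:164047984-164048233 on the plus strand for Sele, chr1:164115014-164115263 on the plus strand for Selp and chr9:21015690-21015939 on the plus strand for Icam1.
Sele: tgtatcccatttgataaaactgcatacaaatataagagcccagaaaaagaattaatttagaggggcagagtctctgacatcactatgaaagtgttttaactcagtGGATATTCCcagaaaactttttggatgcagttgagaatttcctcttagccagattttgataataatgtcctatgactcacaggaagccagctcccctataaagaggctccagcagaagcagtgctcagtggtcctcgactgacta
Selp: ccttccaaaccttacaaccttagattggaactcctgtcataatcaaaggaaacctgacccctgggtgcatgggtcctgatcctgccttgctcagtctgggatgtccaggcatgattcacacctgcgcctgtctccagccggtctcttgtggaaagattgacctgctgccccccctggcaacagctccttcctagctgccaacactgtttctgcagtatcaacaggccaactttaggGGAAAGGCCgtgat
Icam1: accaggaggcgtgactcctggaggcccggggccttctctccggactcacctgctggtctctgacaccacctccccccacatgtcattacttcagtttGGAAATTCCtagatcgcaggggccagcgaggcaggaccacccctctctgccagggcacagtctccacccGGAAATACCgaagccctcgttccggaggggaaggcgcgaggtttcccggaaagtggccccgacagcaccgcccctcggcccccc
The Sele window held 1 match, which read GGATATTCC and began 145 bases before the start, and the Selp window held 1, which read GGAAAGGCC. The Icam1 window held 2, GGAAATTCC and GGAAATACC, and the first, which fits both search patterns, was counted once. The Ackr1 window held 1 match and the Cd34 window 0. Of all 32851 windows of this length, 15.7% held a match, and a match describes letters and not a site in use.

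On GRCm38 (GENCODE M21) the selectin genes are neighbours on the plus strand, Sele at chr1:164048234-164057677 and Selp at chr1:164115264-164150026. Ackr1 lies at chr1:173331886-173333750 on the minus strand, where it overlaps Cadm3 on the same strand, and Cd34 at chr1:194938819-194961279 on the plus strand. Vcam1 lies at chr3:116109949-116129688 (minus), Vwf at chr6:125546774-125686679 (plus), Plvap at chr8:71497765-71511752 (minus) and Icam1 at chr9:21015985-21028817 (plus). Icam2 (chr11:106377656-106388075) and Pecam1 (chr11:106654217-106750628) share the minus strand of their chromosome.

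The KO library held 9182 barcodes with 75473717 unique molecular identifiers (UMIs, counts of captured transcripts), and the WT library 7150 barcodes with 57166105. Filters left 7032 KO and 4940 WT cells, and 17 barcodes occurred in both libraries, 11 of them after filters. Dipk1c, the present symbol of Fam69c, averaged 20.6 CPM (UMIs per 1000000) over KO cells and 32.3 CPM over WT cells, and 3′ counts cannot check an allele whose position is not given here. Classes were set by marker genes that exclude all 10 members. The endothelial class took 256 KO and 177 WT cells, 3.64% and 3.58% of cells. It rests on 12 markers, among them Cldn5, Flt1 and Slco1a4, of which the median cell in both libraries held 91.7%, a share that the gate itself favours. Endothelial genes outside the gate were also seen in most of these cells, Esam in 205 KO and 129 WT cells and Emcn in 183 KO and 126 WT cells. The median endothelial cell had 2738 UMIs in the KO library and 2996 in the WT library, and the class held 955333 and 970407 UMIs in all. Doublet calls removed a further 22 KO and 5 WT barcodes of the endothelial gate. Class levels use the UMIs of the whole class as the total, and since 3′ tags count transcript ends they are not divided by gene length.

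Markers of neighbouring cell types were also present in the endothelial class. The 8 pericyte markers all had UMIs and summed to 438 CPM in KO and 1099 CPM in WT endothelial cells. Smooth muscle markers summed to 45.0 CPM in KO, with Myh11, Cnn1 and Pln at 0, and 177 CPM in WT, with Cnn1 at 0. Hemoglobin took 2.25% of KO and 1.89% of WT endothelial UMIs, and 1 KO cell held 5997 of the 6968 Hba-a1 UMIs. Cells gated as pericytes held 1 Vcam1 UMI in each library and 0 of Icam1, Icam2, Selp and Sele, where 3 UMIs would make 16.7 CPM in KO and 27.0 CPM in WT. The part of these markers in the differences between libraries was not tested.

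Pecam1, Cd34 and Icam2 were carried across the endothelial class. Pecam1, the junctional adhesion molecule, measured 806 CPM in KO (750 to 865) and 919 CPM in WT endothelial cells (860 to 982). It was seen in 86.7% of KO and 80.8% of WT endothelial cells, against 1.22% of KO and 1.78% of WT astrocytes, which were deeper, at median depths of 8940 and 11169.5 UMIs. Cd34, an L-selectin ligand of the luminal surface, measured 671 CPM in KO and 618 CPM in WT and was seen in 74.2% and 70.1% of endothelial cells. Icam2, a constitutive ligand of the leukocyte integrin LFA-1, measured 256 CPM in KO and 183 CPM in WT, with 50.8% of endothelial cells positive in each library. In each library the richest single cell held at most 5.62% of the UMIs of any of these 3 genes. After every cell was thinned to 1000 UMIs, which left out 18 KO and 10 WT cells, Pecam1 was seen in 61.3% and 59.9%, Cd34 in 42.0% and 43.7% and Icam2 in 23.1% and 24.0% of KO and WT endothelial cells.

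Vwf lay between these broad genes and the venular ones. It measured 286 CPM in KO (253 to 322) and 180 CPM in WT endothelial cells (155 to 209). It was seen in 90 of 256 KO cells (35.2%, 29.3% to 41.3%) and 50 of 177 WT cells (28.2%, 21.7% to 35.5%), against 0.264% of KO and 0.212% of WT astrocytes. Thinned to 1000 UMIs, the shares were 19.3% in KO and 10.2% in WT endothelial cells. Its richest cell held 37 of 273 UMIs in the KO library and 48 of 175 in the WT library.

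The venular and inducible genes were each seen in at most 20 endothelial cells of a library. Ackr1 had 46 UMIs in 6 KO cells, 38 of them in 1 cell, and 134 UMIs in 2 WT cells, 133 of them in 1 cell. Vcam1 had 74 UMIs in 18 KO cells, with 23 and 18 in the richest pair, and 205 UMIs in 16 WT cells, with 143 and 35 in the richest pair. Icam1 had 31 UMIs in 20 KO cells, at most 3 in a cell, and 97 UMIs in 16 WT cells, 55 of them in 1 cell. Icam1 in the KO library was thus spread over cells, while the WT levels of all 3 genes leaned on a single barcode. Outside that barcode WT Icam1 was spread as well, with 42 UMIs and at most 9 in a cell. Selp was at 0 in KO endothelial cells and had 58 UMIs in 1 WT cell. Sele was at 0 in KO endothelial cells and had 3 UMIs in the same WT cell. In the KO class 3 UMIs, the limit used for a count of 0, would make 3.14 CPM and 1.17% of cells, and the exact upper limits are 3.86 CPM and 1.43%. Plvap, the diaphragm protein, was at 0 in KO and had 1 UMI in WT endothelial cells.

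**Figure D1:**
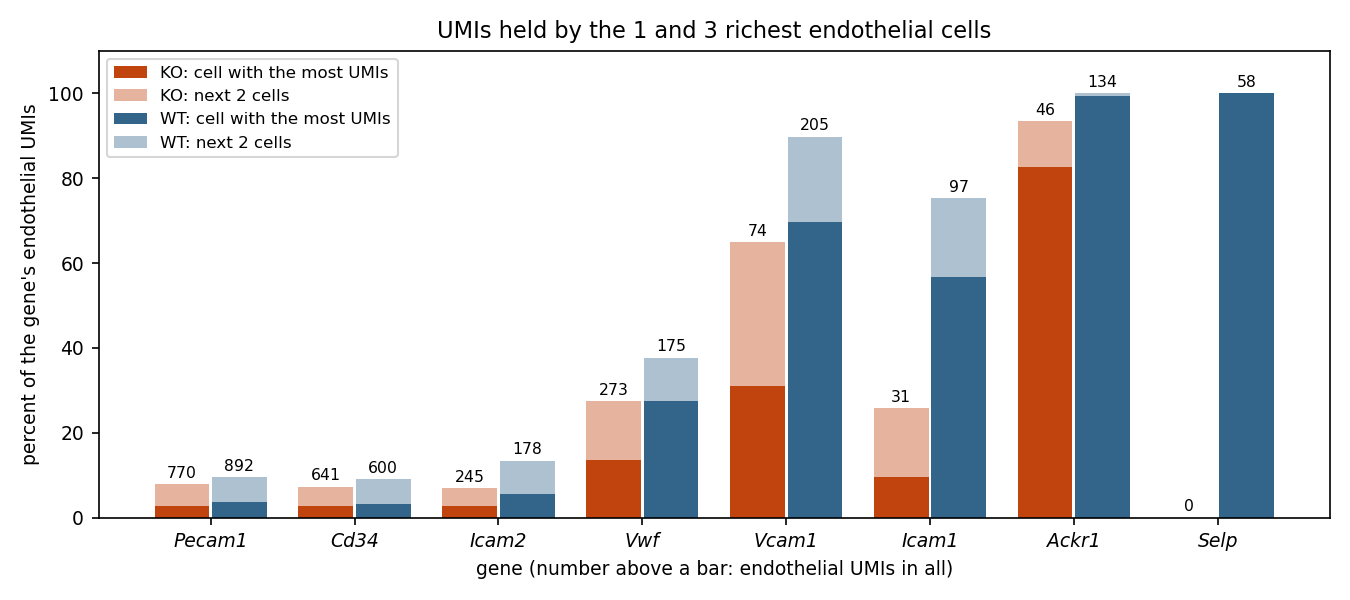
Percent of each gene's endothelial UMIs (vertical axis) held by the cell richest in that gene (dark) and the next 2 cells (pale), KO left of WT for each gene (horizontal axis), with total UMIs above the bars. Pecam1, Cd34 and Icam2 stay low in both libraries, while in the WT library 1 cell held 69.8% of Vcam1, 56.7% of Icam1, 99.3% of Ackr1 and 100% of Selp.

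Among members with at least 30 endothelial UMIs, 1 cell held over 50% of the UMIs for 1 of 7 genes in the KO library (Ackr1) and for 4 of 8 in the WT library (Vcam1, Icam1, Ackr1 and Selp). The same held for 0.321% of all genes with that many UMIs in KO endothelial cells and 0.352% in WT endothelial cells. The 4 WT genes share that cell and are not separate observations.

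The cells that carried the venular genes could be inspected one by one. The WT cell had 35061 UMIs, the most of any WT endothelial cell, with all 12 endothelial and all 6 venous markers detected. Besides Vcam1, Icam1, Ackr1, Selp and Sele it held 48 Vwf, 26 Pecam1, 12 Cd34 and 2 Icam2 UMIs, which made 9 of the 10 genes in 1 barcode. It also had 5 of the 8 monocyte markers, the next class by share. It held 21 of the 24 Itgal, 17 of the 18 Itgb2 and 19 of the 37 Itga4 UMIs of WT endothelial cells. These integrin genes are among the leukocyte partners below. Whether this barcode was 1 cell or more was not tested. No other WT endothelial cell held more than 6 of the genes, and no KO endothelial cell did. The nearest KO counterpart, with 45234 UMIs, was called a doublet and so left out. It held 80 Ackr1, 64 Vwf, 34 Vcam1, 20 Selp, 4 Icam1 and 2 Sele UMIs, all 12 endothelial and all 6 venous markers, and 3 of the 4 erythroid markers that are not hemoglobin genes. The KO cell that stayed in held 38 Ackr1 and 37 Vwf UMIs, 3 of Vcam1 and 0 of Selp, Sele and Icam1, in 21518 UMIs. Another WT cell that stayed in held 35 Vcam1, 9 Icam1 and 2 Vwf UMIs in 2514 UMIs. Of its UMIs 17.5% were mitochondrial, and it had 3 of the 8 platelet markers. A WT barcode called a doublet, with every astrocyte marker, held 114 Vcam1, 30 Vwf, 28 Icam1 and 20 Ackr1 UMIs. Both libraries thus held a venous-marked barcode with Selp, Sele and Ackr1 together, and the doublet call kept the WT one and dropped the KO one.

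Sorting endothelial cells by vessel zone separated the genes further. A cell went to the zone with the most arterial (8 genes), capillary (6) or venous (6) markers detected, none of them a member. This gave 9 KO and 6 WT arterial cells, 222 and 153 capillary cells, 13 and 5 venous cells, and 12 and 13 cells with a tie. Some arterial and venous markers themselves differed past 1.5-fold between the libraries, as given below. Whether a zone held like cells in both libraries was not tested. Ackr1 had 0 UMIs in capillary and in arterial cells of both libraries, was seen in 5 of 13 KO and 2 of 5 WT venous cells, and its KO-richest cell was a capillary and venous tie. In capillary cells 3 UMIs would make 3.87 CPM in KO and 3.80 CPM in WT. In arterial cells they would make 104 and 50.7 CPM, and 104 CPM is above the KO class level of 48.2 CPM, so the KO arterial 0 says little. The WT class level of 138 CPM was 1.07 CPM without its richest cell. That is under the limits of the WT capillary and arterial cells, so both WT zeros say little as well. Vwf measured 1322 CPM in KO and 1382 CPM in WT venous cells, seen in 12 of 13 and 4 of 5. In capillary cells Vwf measured 161 CPM in KO (134 to 192) and 104 CPM in WT (82.6 to 129). In arterial cells Vwf measured 659 CPM in KO (397 to 1029) and 203 CPM in WT (105 to 354). The capillary and arterial intervals of the libraries did not overlap, whereas the venous ones did. The arterial levels rest on 19 KO and 12 WT UMIs, with 7 and 6 of the KO ones in 2 cells. These intervals do not cover the spread between cells, and the share of all genes without overlap was not computed.

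Vcam1 was seen in cells at both ends of the vessel tree. It was detected in 6 of 9 KO and 3 of 6 WT arterial cells, in 5 of 13 KO and 2 of 5 WT venous cells, and in 6 of 222 KO and 8 of 153 WT capillary cells. Its level was 1803 CPM in KO and 135 CPM in WT arterial cells, 207 and 3011 CPM in KO and WT venous cells, and 7.74 and 15.2 CPM in KO and WT capillary cells. The KO arterial value came largely from 2 cells with 23 and 18 UMIs, and the WT venous value from the 1 cell above. Icam1 was at 0 in arterial cells of both libraries, where 3 UMIs would make 104 CPM in KO and 50.7 CPM in WT. It was seen in 6 of 13 KO and 2 of 5 WT venous cells and in 14 of 222 KO and 13 of 153 WT capillary cells. Pecam1, Cd34 and Icam2 had UMIs in every zone of both libraries, with Cd34 at 693 CPM in KO and 658 CPM in WT capillary cells. Among members with at least 30 UMIs, the venous zone was highest of the 3 for 3 genes in the KO library (Vwf, Icam1 and Ackr1). In the WT library it was highest for those genes, Vcam1 and Selp, 5 in all. In WT, 1 cell held 143 of the 146 Vcam1, 55 of the 58 Icam1, 133 of the 134 Ackr1 and all 58 Selp UMIs of the zone. No share over all genes was computed beside these counts, so nothing is read from them.

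**Figure D2:**
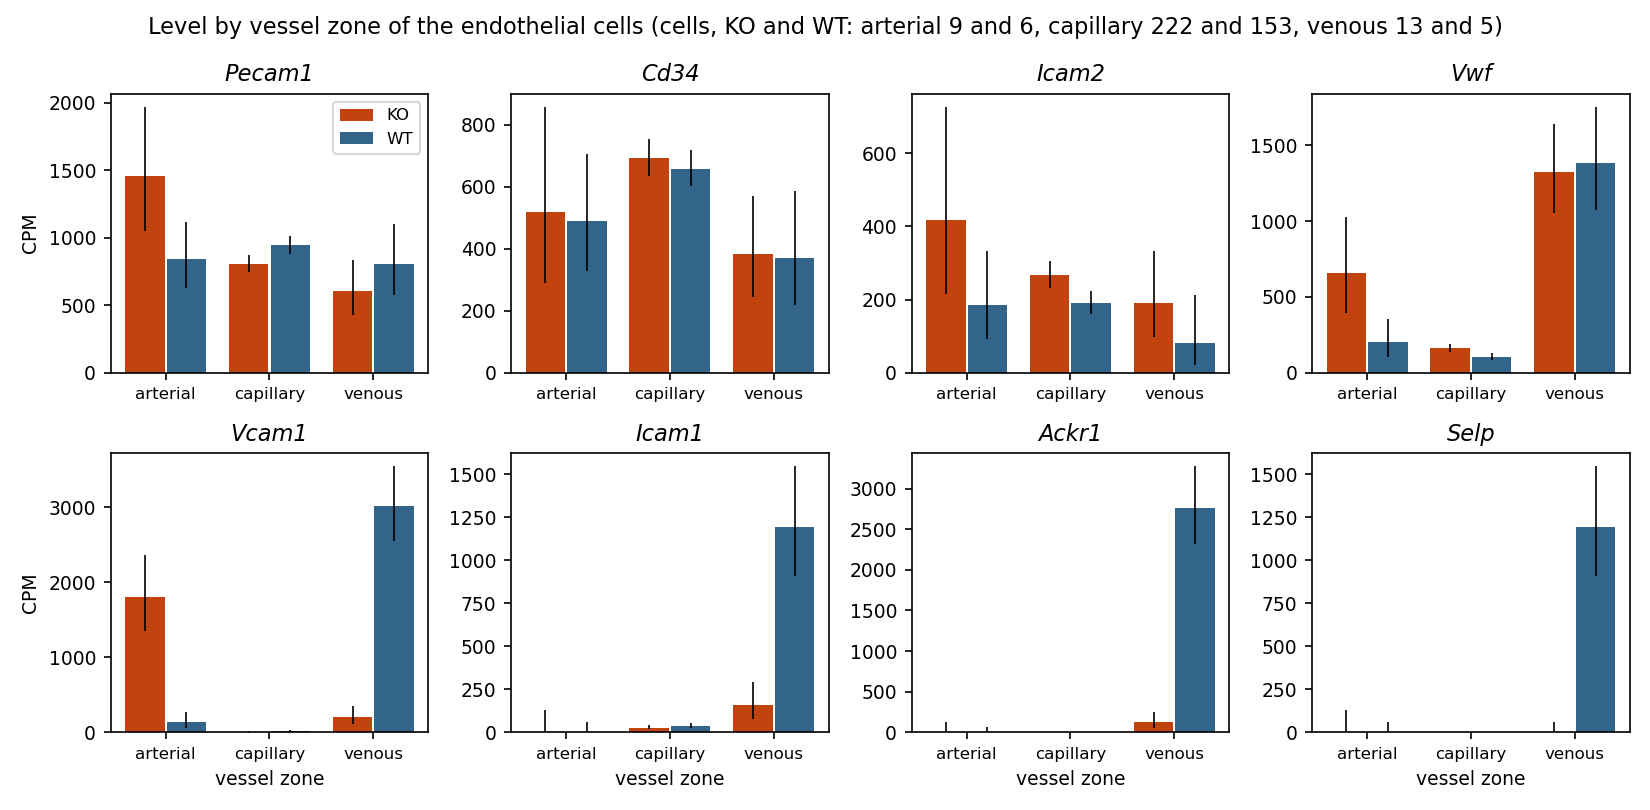
Level in CPM (vertical axis, separate scale for each gene) by vessel zone of the endothelial cells (horizontal axis), KO left of WT, with exact 95% Poisson intervals as bars. Vwf reached 1322 CPM in KO and 1382 CPM in WT venous cells, and the Selp bar and nearly all of the Ackr1 bar of the WT venous zone come from 1 cell.

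Outside the endothelium the genes divided into those that stayed vascular and those that had another main source. Past 4-fold over all other gated cells, with 10 CPM added, were 5 of 8 members with enough UMIs in the KO library, against 4.16% of all genes, and 7 of 9 in the WT library, against 3.97%. The 10 genes were chosen by their endothelial levels, so nothing is read from these counts. The 5 were Pecam1, Cd34, Icam2, Vwf and Ackr1, though without 1 KO cell the KO ratio of Ackr1 was 0.68 (log2, 10 CPM added), against 2.33 with it, and without 1 WT cell its WT ratio was -0.024, against 3.72. Icam1 and Selp joined them in the WT library alone, and without that WT cell neither did, Icam1 standing at 1.76. Vwf had 30 UMIs in KO and 21 in WT gated cells outside the endothelium, against 273 in KO and 175 in WT endothelial cells.

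**Figure D3:**
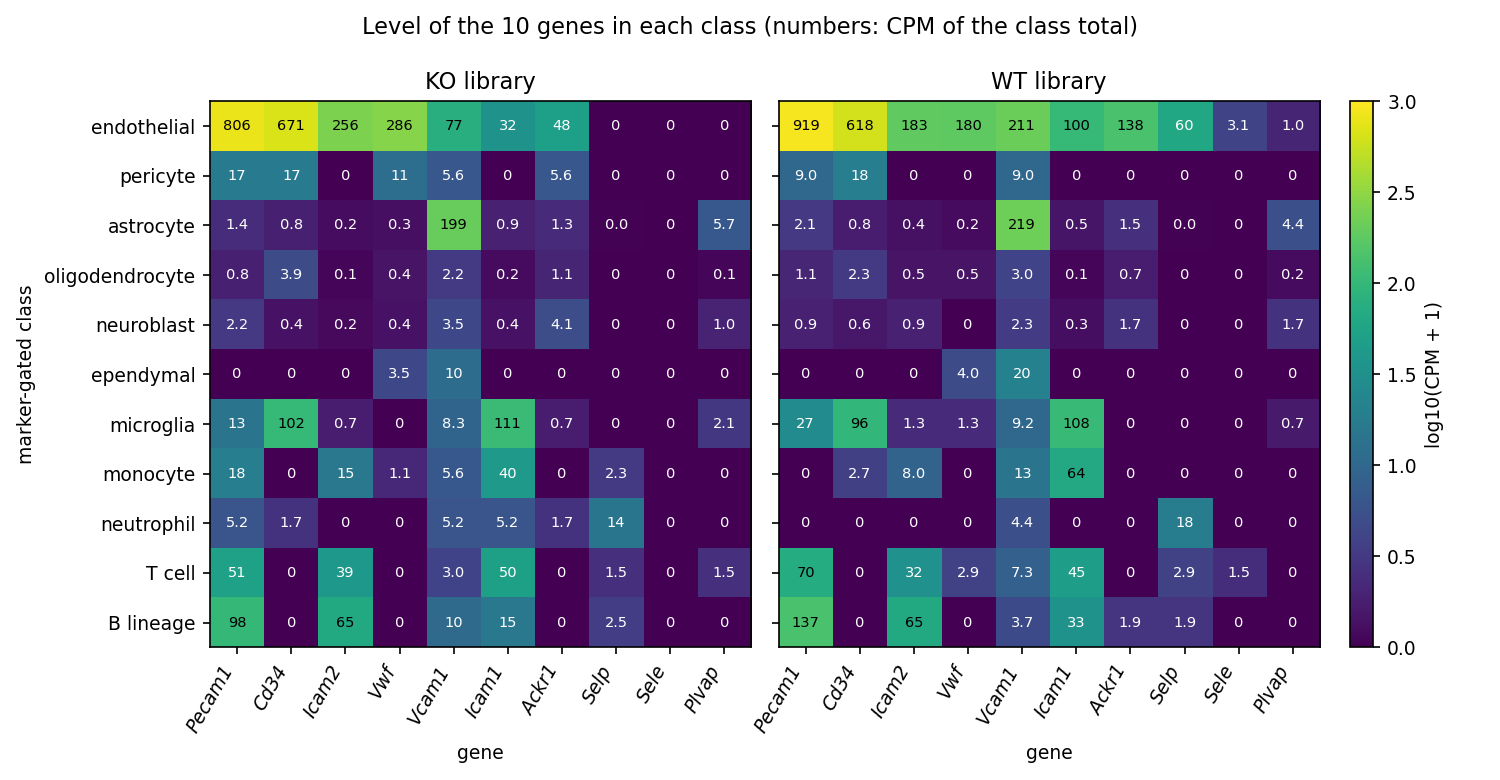
Level of the 10 genes (columns) in 11 marker-gated classes (rows), KO library on the left and WT library on the right, coloured by log10(CPM + 1) with the CPM written in each cell of the map. The endothelial row is bright for Pecam1, Cd34, Icam2 and Vwf in both libraries, while Vcam1 is as bright in astrocytes, at 199 CPM in KO and 219 CPM in WT.

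Vcam1 was for the most part an astrocyte transcript in these libraries. Astrocytes held 7266 of 7599 KO UMIs and 91.0% of WT UMIs, at 199 CPM in KO (195 to 204) and 219 CPM in WT (213 to 225). A Vcam1 UMI was seen in 69.5% of KO and 68.8% of WT astrocytes, against 3.79% of KO and 3.75% of WT microglia. Astrocytes with a UMI of Gfap, the intermediate filament gene, measured 212 CPM in KO and 237 CPM in WT, and those without it 197 CPM in KO and 214 CPM in WT, so Vcam1 was not confined to Gfap-positive cells. Of the order of classes, astrocyte exceeded endothelial in the KO library beyond the intervals, and in the WT library they did not separate. That WT endothelial level rested on 1 cell, without which it was 66.3 CPM. The 3 genes whose class pattern was most like that of Vcam1, over 17 class and library points in 10 classes that share libraries, were Rbm20 (Pearson r = 0.97), Csgalnact1 (0.97) and A930012L18Rik (0.97). Plvap UMIs were also almost all astrocytic, 207 in KO and 111 in WT, at 5.68 and 4.44 CPM. The Plvap locus overlaps Gtpbp3 on the opposite strand, and Gtpbp3 measured 6.15 CPM in KO and 6.16 CPM in WT astrocytes, but its class pattern differed from that of Plvap. In oligodendrocytes Gtpbp3 measured 11.4 CPM in KO and 7.99 CPM in WT, where Plvap had 1 KO and 2 WT UMIs, and in endothelial cells 14.7 CPM in KO and 11.3 CPM in WT. Which gene the astrocytic reads came from was not tested.

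Icam1 and Cd34 were shared with microglia. Icam1 measured 111 CPM in KO and 108 CPM in WT microglia, seen in 32.2% and 33.3% of cells, against 0.256% of KO and 0.144% of WT oligodendrocytes. Microglia with a UMI of the chemokine genes Ccl3 or Ccl4 had 131 CPM of Icam1 in KO and 125 CPM in WT, and those without had 97.6 and 90.5 CPM, with overlapping intervals in each library. Monocytes (39.5 CPM in KO, 63.9 in WT) and T cells (49.9 in KO, 45.3 in WT) also carried Icam1. In the KO library the microglial level lay above the endothelial one beyond the intervals, and in the WT library the 2 classes did not separate, although without 1 cell the WT endothelial level was 44.9 CPM. Cd34 measured 102 CPM in KO and 96.5 CPM in WT microglia, 15.5% and 15.3% of its UMIs, and was at 0 in T cells and B-lineage cells of both libraries.

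Pecam1 and Icam2 reached into lymphocytes. Pecam1 measured 97.8 CPM in KO and 137 CPM in WT B-lineage cells, and 51.4 CPM in KO and 70.1 CPM in WT T cells. Icam2 measured 65.2 CPM in KO and 64.8 CPM in WT B-lineage cells, and 39.3 CPM in KO and 32.1 CPM in WT T cells. The class patterns of Pecam1 and Icam2 were among the 3 most alike of each other (r = 0.96), with Ly6a closest to both (0.97). Selp outside the endothelium had its highest class level in neutrophil-gated cells, at 13.8 CPM in KO and 17.7 CPM in WT, in 5 of 95 KO and 4 of 36 WT cells. These held 8 of the 21 KO UMIs and 4 of the 70 WT UMIs of the gene. Ackr1 measured 4.11 CPM in KO and 1.73 CPM in WT neuroblasts and 1.32 CPM in KO and 1.52 CPM in WT astrocytes. The many astrocytes held 48 of its 149 KO UMIs and 38 of its 196 WT UMIs, against 46 in KO and 134 in WT endothelial cells. Because its locus overlaps Cadm3 on the same strand these reads cannot be assigned with certainty. In endothelial cells Cadm3 was at 0 in KO and had 1 UMI in WT. Sele had 1 UMI outside the endothelium, in a WT T cell.

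Set side by side, KO and WT endothelial cells differed past 1.5-fold, with 10 CPM added, for 5 of the 8 members with at least 50 UMIs. Vwf alone was higher in KO, against 3% of all 5962 genes with enough UMIs, and Vcam1, Icam1, Ackr1 and Selp were lower in KO, against 3.57%. Vwf had a log2 ratio of 0.66 (0.39 to 0.95). Without the cell richest in it in each library it measured 253 CPM in KO and 136 CPM in WT, a log2 ratio of 0.90 (0.58 to 1.22). With 10 CPM added its ratio was 0.64, and it missed 1.5-fold, at 0.49, in cells with 1000 genes or more and up to 10% mitochondrial UMIs. Icam2 stood at 0.48 (0.20 to 0.77), Cd34 at 0.12 (-0.04 to 0.28) and Pecam1 at -0.19 (-0.33 to -0.05), all under the 1.5-fold limit.

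The 4 genes lower in KO endothelial cells lost that call without the richest cell of each library, in WT the same cell for all 4. With each cell weighed the same and 10 CPM added, Vcam1 (-0.81), Icam1 (-0.86) and Selp (-0.95) stayed past 1.5-fold, and Ackr1 (-0.12) did not. The log2 ratios that follow carry no added CPM. Vcam1 stood at -1.45 (-1.85 to -1.06), and without the richest cell of each library it measured 53.9 CPM in KO and 66.3 CPM in WT, a ratio of -0.30 (-0.86 to 0.26). Icam1 stood at -1.62 (-2.26 to -1.03), and without those cells it measured 29.4 CPM in KO and 44.9 CPM in WT, a ratio of -0.61 (-1.35 to 0.11). Ackr1 stood at -1.52 (-2.04 to -1.03), and without those cells it had 8 UMIs in KO and 1 in WT, on the other side of 0 at 3.00 (0.10 to 8.47). Selp, whose WT level was 19.0-fold the level that 3 UMIs would make in KO, was at 0 in both libraries without its 1 cell. With doublet calls kept, Ackr1 had 126 UMIs in KO and 134 in WT (-0.26, -0.63 to 0.10), Vcam1 had 116 and 205, Icam1 37 and 97 and Selp 21 and 58. The shares of cells had overlapping intervals, with Vcam1 in 7.03% of KO (4.22% to 10.9%) and 9.04% of WT endothelial cells (5.26% to 14.3%) and Icam1 in 7.81% (4.84% to 11.8%) and 9.04% (5.26% to 14.3%).

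**Figure D4:**
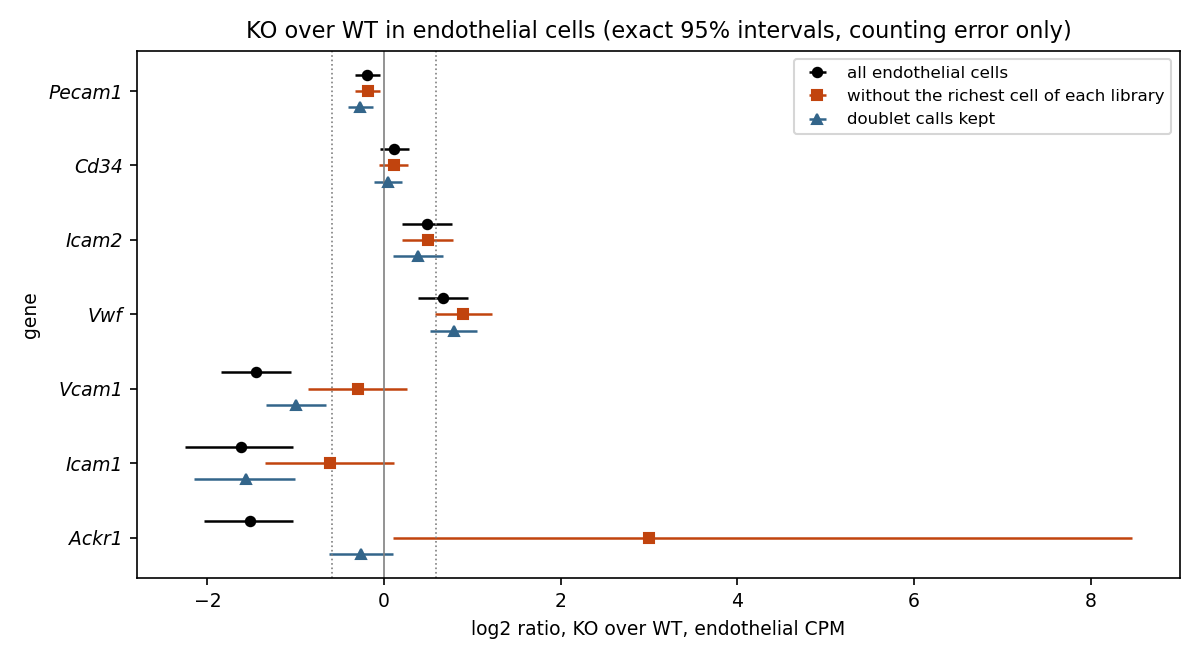
Log2 ratio of endothelial CPM, KO over WT (horizontal axis), for the 7 genes with UMIs in both libraries that reached 50 in all (vertical axis), over all endothelial cells (circles), without the cell richest in the gene in each library (squares) and with doublet calls kept (triangles). Bars are exact 95% intervals and dotted lines mark 1.5-fold; Pecam1, Cd34, Icam2 and Vwf hold their place, while Vcam1, Icam1 and Ackr1 move with single cells.

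In the other classes compared, Pecam1 in microglia was the only member called past 1.5-fold between libraries. Vcam1 in astrocytes was at -0.13 (-0.18 to -0.08), Icam1 in microglia at 0.04 (-0.29 to 0.36) and Cd34 in microglia at 0.07 (-0.27 to 0.41). Of 3 members with enough UMIs in microglia, Pecam1 was lower in KO past 1.5-fold, at 13.2 CPM in KO and 26.9 CPM in WT (19 and 41 UMIs), against 3.29% of all genes lower and 3.21% higher. Its log2 ratio there was -1.03 (-1.89 to -0.21). In astrocytes Pecam1 stood at -0.60 (-1.18 to -0.02), with levels of 1.40 CPM in KO and 2.12 CPM in WT. It stood at -0.45 (-1.13 to 0.22) in T cells and -0.49 (-1.08 to 0.09) in B-lineage cells. With 10 CPM added, none of the 4 members compared in astrocytes passed the limit, against 0.323% higher and 0.727% lower of all genes there.

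Genes around the members were compared in the same endothelial cells, by lists chosen with these data known. Of all genes with at least 50 UMIs the median log2 ratio, with 10 CPM added, was -0.01, and over the 8 members, 5 of them below 0, it was -0.76. Without the cell richest in each gene the median of the same 8 members was 0.05. Of 11 NF-kB signalling genes with enough UMIs, Bcl3, an atypical member of the IkB family, was higher in KO at 53.4 CPM, against 30.9 CPM in WT, and none was lower. Nfkbia, the inhibitor induced by NF-kB itself, measured 757 CPM in KO and 737 CPM in WT, and the list's median was 0.04. All 3 activated endothelium genes with enough UMIs were higher in KO, against 3% of all genes, with a median of 1.09, or 0.69 without the cell richest in each. Cxcl1 of the same list, under the minimum, had 5 UMIs in KO and 16 in WT, 10 of them in 1 cell. Lrg1, a secreted glycoprotein, had 107 UMIs in KO and 46 in WT, with 73 in 1 KO cell and 35 in 1 WT cell. Socs3, the feedback inhibitor of cytokine signalling, measured 57.6 CPM in KO and 20.6 CPM in WT (21 of 55 and 2 of 20 UMIs in 1 cell). Cebpd, an acute-phase transcription factor, measured 304 CPM in KO and 185 CPM in WT and was seen in 103 KO and 55 WT cells. Fos and Nr4a1 of 9 immediate early genes were lower in KO, Fos at 50.2 CPM in KO and 119.5 CPM in WT and Nr4a1 at 27.2 CPM in KO and 87.6 CPM in WT.

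Of the 6 venous zone genes, Lcn2, Tmem252 and Il1r1 were higher in KO and Nr2f2, the venous identity factor COUP-TFII, was lower, with a list median of 0.49. Lcn2, an iron-binding acute-phase protein, measured 619.7 CPM in KO and 179 CPM in WT, with 446 of 592 UMIs in 1 KO cell and 147 of 174 in 1 WT cell. That KO cell was also the richest in Ackr1 and Vwf. Without the cell richest in it Lcn2 measured 156 CPM in KO and 28.9 CPM in WT. Tmem252 was spread wider, at 365 CPM in 111 KO cells and 144 CPM in 56 WT cells. Il1r1, the interleukin-1 receptor, measured 71.2 CPM in KO and 40.2 CPM in WT, but 46.0 and 32.1 CPM, under 1.5-fold, without its richest cells. Nr2f2 measured 32.4 CPM in KO and 66.0 CPM in WT. Among 6 arterial genes with enough UMIs, Bmx (50.2 CPM in KO, 22.7 in WT) and Cytl1 (64 UMIs in 4 KO cells, 0 in WT) were higher, and the list median was -0.02. Edn1, the vasoconstrictor endothelin-1 and a cargo of Weibel-Palade bodies beside Vwf, was lower in KO at 100.5 CPM, against 182 CPM in WT, the 1 call of 3 genes in that list. None of 10 junction and glycocalyx genes (median 0.12), 6 capillary genes (median -0.07), 4 flow-responsive genes (median -0.07), 2 leukocyte partner genes (median -0.42), 2 tip or fenestrated vessel genes (median -0.08) and 1 lymphatic endothelial gene, Flt4, passed 1.5-fold. Of 4 hemoglobin genes Hba-a1 and Hbb-bt were higher in KO, and without the cell richest in each gene all 4 were lower in KO, Hba-a1 at 1038 CPM in KO and 3049 CPM in WT.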

How the data were processed

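The authors deposited raw UMI counts per gene and barcode, 1 table per library, written by Cell Ranger 4.0.0, per the file headers. The genome build mm10, Seurat 3.0 and R 4.0.3 are listed in the submitters' processing notes. Whether introns and strand were counted is not stated there. Barcodes under 500 genes or over 20% mitochondrial UMIs were removed. The automatic threshold of Scrublet (scanpy 1.11.5) called 164 KO and 0 WT barcodes and was not used, so the highest scores were called at 0.8% per 1000 barcodes (448 KO, 212 WT). A cell joined the class whose markers it held in the largest share (at least 50%, at least 3 markers, 20 points over the next), and 559 KO and 871 WT cells joined none. Hemoglobin genes were taken out of the erythroid gate after the data were seen. UMIs were summed by class and scaled to CPM. Levels have exact Poisson intervals, ratios exact conditional binomial ones and shares Clopper-Pearson ones, and their calculation was tested on simulated data. Calls need 1.5-fold between libraries or 4-fold between classes, with 10 CPM added and at least 50 UMIs. The log2 ratios printed for members carry no added CPM, and list medians do. Most zeros of members in a class or zone are given with the level of 3 UMIs there.

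Members, markers and lists were chosen with earlier results of these data known. All 10 members were named, and of each list the genes past 1.5-fold, up to 3 in each direction, and some of the most abundant. Class patterns were compared for members with at least 100 UMIs by Pearson's r of log2(CPM + 10). Positions come from GENCODE M21, which held all 10 genes, and upstream windows from RefSeq on GRCm38.p6. Python 3.11.15, numpy 2.4.6, scipy 1.17.1 and pandas 2.3.3 were used.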

Additional observations from a re-analysis of the deposited data

How the results depend on the processing

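No paired analysis was possible because each genotype had 1 library. The count of members higher in KO endothelial cells, 1 in the main analysis (Vwf), was 0 after a stricter filter (1000 genes, 10% mitochondrial UMIs). The count lower in KO, 4 in the main analysis, was 0 with cells thinned to 1000 UMIs, where fewer UMIs remained and the log2 ratios with 10 CPM added were -1.13 for Vcam1, -1.06 for Icam1 and -1.48 for Selp, and 0 without the barcode richest in each gene, an alternative chosen after seeing the data. Members past 4-fold over other cells in the WT library, 7 in the main analysis, were 2 with thinning, although the ratios of Icam2 (3.92), Vwf (4.11) and Icam1 (2.45) stayed past 4-fold, and 4 without those barcodes. With 10 CPM added, Ackr1 was -1.35 KO over WT, and turned to 0.50 with thinning and 0.75 without the richest barcode. In the WT library Ackr1 (3.72) and Selp (2.78) stood over other cells, and without that barcode they were at -0.024 and -0.027. List genes lower in KO, 4 in the main analysis, were 9 with no minimum of UMIs and 8 without the cell richest in each gene, 4 of them hemoglobin genes, while those higher, 11 in the main analysis, were 7. The other member counts between libraries and between classes stayed within 1.5 times under looser and stricter gates, Leiden clusters, doublets kept, no cell filter, equal weight per cell and hemoglobin genes in the erythroid gate, and those between libraries also with 1 CPM added, trimmed mean scaling (a shift of -0.02) and no minimum of UMIs. List counts were run with no minimum and without the richest cells alone. With zones set by summed UMIs, the members highest in the venous zone stayed at 3 in KO and 5 in WT. The WT ones rested largely on UMIs of 1 cell, and arterial cells numbered 8 in KO and 2 in WT. Of single-member ratios, 106 KO over WT and 167 endothelial over other values were labelled unmoved, and 8 and 20 moved by more than their counting error. Another 2 and 2, past the fold in the main analysis, changed sign. Ratios with no interval, among them Selp, Sele and Plvap KO over WT, could not be labelled moved. Selp went from -2.80 to -0.95 with equal weight per cell. The endothelial counts of Sele, Plvap and Selp in the main analysis rest on 1 cell for each gene.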

Other observations

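The leukocyte partners of these adhesion molecules were measured in the same libraries, with no comparison made between them. Selplg, the P-selectin ligand PSGL-1, measured 2386 CPM in KO and 2234 CPM in WT microglia, and 976 CPM in KO and 762 CPM in WT neutrophils. Itga4, the alpha 4 integrin chain that binds VCAM-1, measured 385 CPM in KO and 492 CPM in WT T cells, 348 CPM in KO and 506 CPM in WT monocytes, and 28.3 CPM in KO and 38.1 CPM in WT endothelial cells. Pericytes also carried Itga4, at 268 CPM in KO and 297 CPM in WT. Itgal, the LFA-1 chain that binds ICAM-1 and ICAM-2, measured 260 CPM in KO and 284 CPM in WT neutrophils. In endothelial cells it was at 0 in KO and at 24.7 CPM in WT. Of its 24 WT endothelial UMIs, 21 were in the WT cell with 35061 UMIs described above.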
